A study of Mus musculus with 2 samples.

Results

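The Sprouty and SPRED proteins, brakes on signalling through RAS, were examined in HT22, a mouse nerve cell line of hippocampal origin. Their members are the 3 SPRED genes Spred1, Spred2 and Spred3 and the 4 Sprouty genes Spry1, Spry2, Spry3 and Spry4. Every probe set annotated to 1 of these 7 genes was taken, 22 of 45037 after controls were set aside. One group of cells received J147 for 1 h and the other received the DMSO vehicle for 1 h, in both cases after a night in DMEM with 10% FCS, and each group was measured on 1 Affymetrix GeneChip for the mouse genome. HT22 is an established line, so the arrays describe cultured cells and not brain tissue. With 1 array per group there is no replicate error and no test. An effect of J147 and a difference between the cultures or the arrays cannot be told apart.

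When a growth factor binds its receptor tyrosine kinase, adaptors such as GRB2 bring the exchange factor SOS to the membrane, RAS is loaded with GTP, and the kinases RAF, MEK and ERK are switched on in turn. Sprouty and SPRED proteins act against this relay. They share a cysteine-rich C-terminal domain that holds them at membranes, and SPRED proteins also carry an N-terminal EVH1 domain through which SPRED1 and SPRED2 bring neurofibromin, a protein that returns RAS to its inactive form. Several of these genes, above all the Sprouty genes, are themselves transcribed when ERK is active, which makes them part of a negative feedback loop.

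The values are log2 intensities, and log2 differences are J147 minus vehicle after scaling, which sets the median intensity of an array to 100. Scaling moved every difference by -0.00459 log2 units, so a probe set with the same deposited value on both arrays has a difference of -0.00. A probe set was scored when its mean scaled intensity over both arrays was above 100. The lowest deposited value, 2.23, lies just under that limit and was shared by many probe sets, 46.3% of them with vehicle and 46.0% with J147, within 0.01 log2 units. A probe set there cannot show a fall, nor a rise that stays below that level. Different probes bind with different strength, so no gene is called more or less abundant than another from these levels.

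Scored probe sets of Sprouty and SPRED genes numbered 13, of which 2 were at least 1.5-fold higher with J147, none was at least 1.5-fold lower and 11 were neither. Among the 22545 probe sets scored on these arrays, 0.856% were at least 1.5-fold higher and 0.781% at least 1.5-fold lower. Of these 13 probe sets 1, for Spred2, was also at least 2-fold higher and none was at least 2-fold lower, beside 0.0754% and 0.0710% of all scored probe sets. The study had already listed Spred2 among the genes most raised on these arrays, and the members were chosen with earlier results known. These counts therefore describe the arrays and support nothing further. The count of 2 became 1, Spred2 alone, when 50 was added to each intensity, and 1, Spry2 alone, when both arrays had to lie at least 1 log2 unit above the lowest value. Their median log2 difference was -0.00, the same as that of all scored probe sets. Of the 13, 4 (30.8%) had identical deposited values on both arrays, against 18.9% of all scored probe sets. Of the other 9, 6 were higher with J147 and 3 were lower.

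**Figure D1:**
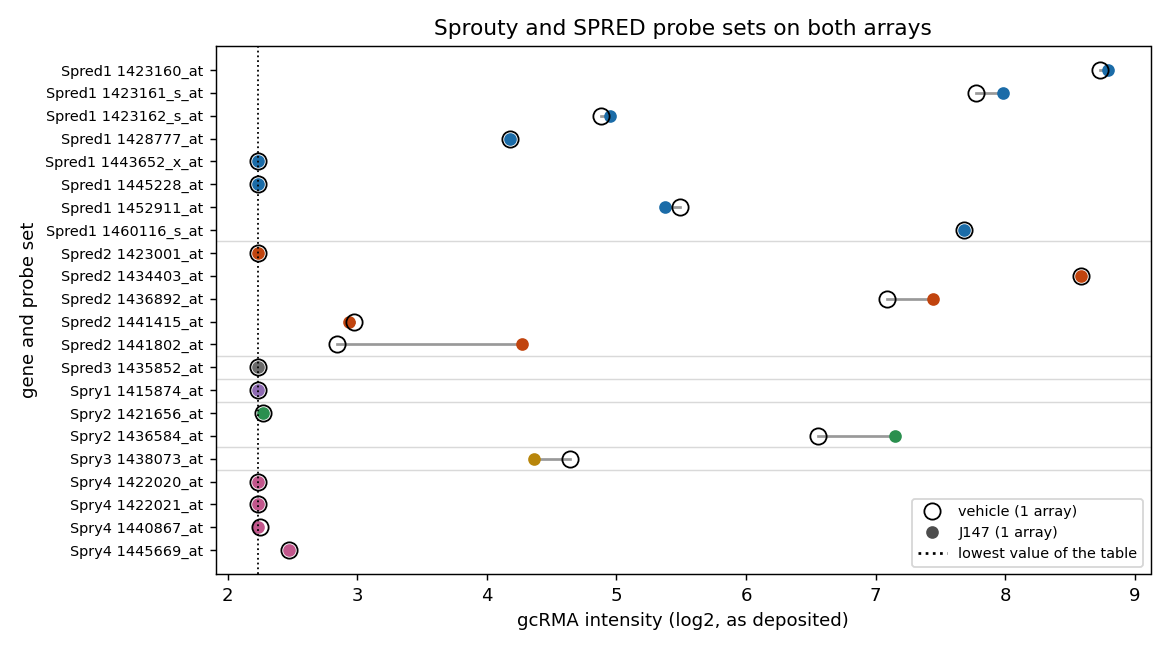
Deposited gcRMA intensity on the log2 scale (horizontal axis) of each of the 22 Sprouty and SPRED probe sets (vertical axis) with vehicle (open circles) and with J147 (filled circles). A grey line joins both values, and the dotted line marks the lowest deposited value, 2.23. The longest grey line, from 2.84 to 4.27, is that of the highest-numbered Spred2 probe set, and 7 probe sets lie on the dotted line with both treatments.

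The upstream sequences of the members with a probe set at least 1.5-fold higher, Spred2 and Spry2, are shown so that sites of factors that act downstream of ERK can be looked for. RefSeq windows ran from 250 bases before to 50 bases after the start of the gene on build GRCm38.p6. They were examined for 5 members, Spred1, Spred2, Spred3, Spry1 and Spry2. Windows of Spry3 and Spry4 were not searched, so the counts of member windows leave both genes out. The 250 bases before the start lie at chr11:19924192-19924441 on the plus strand for Spred2 and at chr14:105896820-105897069 on the minus strand for Spry2. Capitals mark the letters CGTCA, the core of the site bound by CREB, and GGAAG, a core bound by ETS factors that ERK phosphorylates, each on either strand.
Spred2: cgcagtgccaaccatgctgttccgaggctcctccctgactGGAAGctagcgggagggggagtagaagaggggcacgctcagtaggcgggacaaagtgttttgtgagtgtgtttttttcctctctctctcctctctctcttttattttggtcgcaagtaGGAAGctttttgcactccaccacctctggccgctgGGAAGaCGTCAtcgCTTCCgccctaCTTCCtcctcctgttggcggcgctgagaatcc
Spry2: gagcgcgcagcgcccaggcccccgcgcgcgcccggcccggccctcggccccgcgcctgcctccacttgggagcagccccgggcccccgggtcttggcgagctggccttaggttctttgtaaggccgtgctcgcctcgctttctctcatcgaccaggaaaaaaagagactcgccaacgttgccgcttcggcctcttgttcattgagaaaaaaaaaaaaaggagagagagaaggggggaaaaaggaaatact
The Spred2 sequence holds GGAAG or its complement 5 times and CGTCA once, at 51 to 47 bases before the start, and neither core occurs in the printed 250 bases of Spry2. In the whole windows, Spry2 holds GGAAG once, at 15 to 19 bases after the start. GGAAG or its complement also occurs 2 times in the window of Spred1 and 1 time in that of Spred3, genes with no probe set at least 1.5-fold higher, so 4 of the 5 member windows hold it and that of Spry1 does not. Over all 32851 windows, 71.4% hold GGAAG and 20.8% hold CGTCA on either strand, and over their 250 upstream bases alone 64.1% and 17.8% do. These shares count any match, and how many windows hold GGAAG 5 times was not counted. Both cores were chosen after longer motifs had given no match. Those longer motifs, searched on both strands of the whole windows of the 5 members, were GCGTGGGCG and GCGGGGGCG of the EGR factors (in 3.47% of all windows), TGACGTCA of CREB (1.79%), TGANTCA of AP-1 (7.81%), CCGGAAG of ETS factors (8.86%) and the CArG box of SRF (1.63%). The longer motif TGACGTCA contains the core CGTCA, and CCGGAAG contains GGAAG. A CpG dinucleotide occurred 17 times in the window of Spred2 and 28 times in that of Spry2, beside 40 for Spred1, 29 for Spry1 and 8 for Spred3 and a median of 7 over all windows.

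Spred2, which inhibits the activation of RAS and ERK, was read by 5 probe sets designed from 5 different source sequences. The highest-numbered of them had a scaled intensity of 146 with vehicle and 391 with J147, a log2 difference of 1.43. It was the third highest difference of all scored probe sets. The vehicle value lay 0.61 log2 units above the lowest deposited value and the J147 value 2.04 above it, so the fold rests on a faint vehicle signal. Probe set 1436892_at went the same way by less, from 2753 to 3513, which is 1.28-fold higher and at place 659 of the scored probe sets. Among the 500 nearest neighbours of this probe set in mean level, all scored, 36 had as large a difference in either direction. The others did not follow. Probe set 1434403_at was at 7814 for vehicle and 7789 for J147, the same deposited value, and 1441415_at was faint, at 159 for vehicle and 155 for J147. The fifth, 1423001_at, lay at the lowest value with both treatments. The 4 scored probe sets therefore ran from -0.04 to 1.43 on the log2 scale, with an SD of 0.68 between probe sets, which are readings of the same RNA and not replicates. Which of them follows the Spred2 mRNA best was not tested here. The highest-numbered probe set was 2.69-fold higher, close to the 2.7-fold that the study listed for Spred2. By the methods of the study, genes of interest and those most changed were also checked by real-time quantitative PCR. Its text does not name the genes so checked and gives no PCR values.

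Spred1, the SPRED protein best known for bringing neurofibromin to RAS, had 8 probe sets, of which 6 were scored. Their log2 differences ran from -0.12 to 0.20 with an SD of 0.11, and none reached 1.5-fold. Probe set 1423160_at, the one with the highest mean level, read 8618 with vehicle and 8977 with J147 in scaled intensity. Probe set 1423161_s_at, which has the largest difference among them, went from 4446 to 5123, 1.15-fold higher. As many as 100 of its 500 neighbours in level had as large a difference. Probe set 1452911_at was lower with J147, at 839 against 913, a difference that 209 of 500 neighbours matched or passed. The 8 probe sets come from only 4 source sequences. Probe sets 1423160_at, 1423161_s_at and 1423162_s_at share 1 source and were all higher with J147, by 0.06, 0.20 and 0.07 log2 units. Probe sets 1428777_at and 1452911_at share another, the former with identical values on both arrays, at 4.18, and the latter lower by 0.12. Of a further pair with a shared source, 1443652_x_at lay at the lowest value with both treatments while 1460116_s_at had the same deposited value of 7.68 on both. The suffixes _s_at and _x_at mark probe sets whose probes may also bind other transcripts. The remaining probe set of Spred1, 1445228_at, gave the lowest value with both treatments.

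Spred3, the third SPRED gene, had the single probe set 1435852_at. It gave the lowest deposited value with both treatments, so no difference could be measured for it. This does not show that Spred3 mRNA was absent.

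Among the Sprouty genes, Spry2 had the highest difference. SPRY2 is phosphorylated on tyrosine after growth factor stimulation and binds the ubiquitin ligase CBL and the adaptor GRB2. Its probe set 1436584_at read 1907 with vehicle and 2869 with J147 in scaled intensity, a log2 difference of 0.59 or 1.504-fold, only just past the limit. It was at place 189 of the scored probe sets, and 12 of its 500 neighbours in level had as large a difference. On the deposited scale the values were 6.55 and 7.15, which lie 4.32 and 4.91 log2 units above the lowest deposited value. The other Spry2 probe set, 1421656_at, had 2.27 on both arrays and was not scored, with scaled intensities of 97.8 and 97.5 that lay just under the limit. Spry2 thus rests on 1 informative probe set.

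Spry3 went the other way. Its single probe set, 1438073_at, read 506 with vehicle and 416 with J147 in scaled intensity, a log2 difference of -0.28. Of 500 neighbours in level, 83 had as large a difference, and the SD of their differences was 0.25. Spry4, another feedback inhibitor of ERK signalling, had 4 probe sets and no measurable difference. Of these, 1445669_at was scored, just above the limit at 113 for vehicle and 112 for J147, with identical deposited values of 2.47. Probe sets 1422020_at and 1422021_at, which share a source sequence, gave the lowest value with both treatments, and 1440867_at had 2.25 for vehicle and 2.23 for J147. Spry1, a Sprouty gene induced by growth factors in many cells, also gave the lowest value with both treatments, by its only probe set, 1415874_at.

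**Figure D2:**
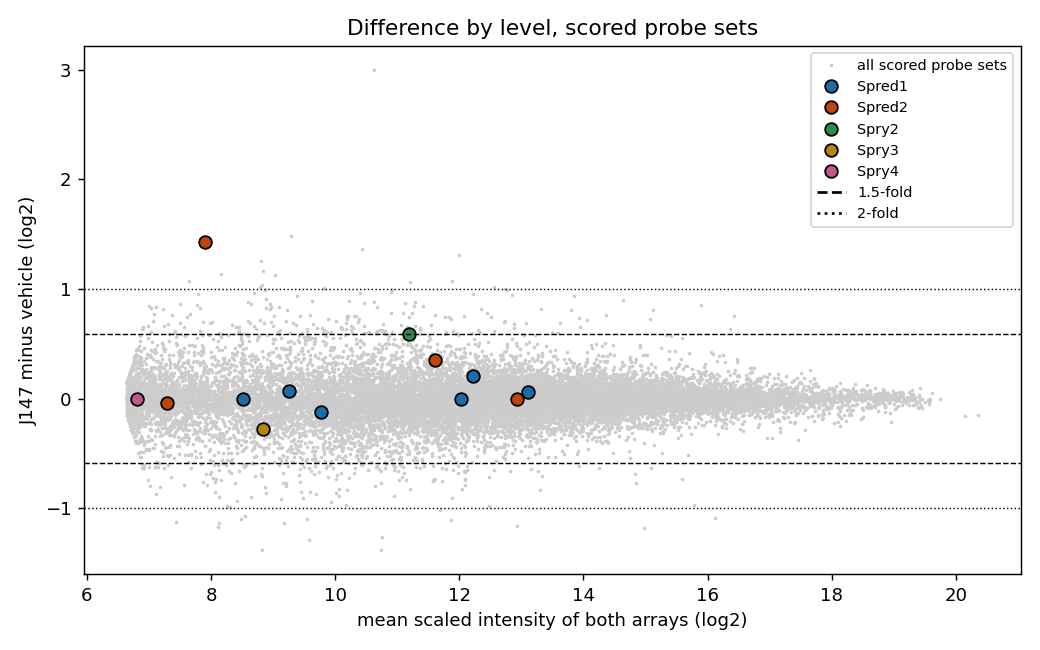
Log2 difference, J147 minus vehicle (vertical axis), against the mean scaled intensity of both arrays on the log2 scale (horizontal axis), for all 22545 scored probe sets (grey) and the 13 scored Sprouty and SPRED probe sets (coloured by gene). Dashed lines mark 1.5-fold and dotted lines 2-fold. The highest-numbered Spred2 probe set lies above the 2-fold line at a low level, Spry2 1436584_at on the 1.5-fold line, and the other 11 between the dashed lines.

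Read with 1 value per gene, from the probe set with the highest mean level, 5 of the 7 members had a value and 1 of them, Spry2, was at least 1.5-fold higher, at place 58 of 10611 genes. None was at least 1.5-fold lower. Of all genes read this way, 0.556% were at least 1.5-fold higher and 0.810% at least 1.5-fold lower. The log2 differences were 0.59 for Spry2, 0.06 for Spred1, -0.00 for both Spred2 and Spry4 and -0.28 for Spry3. That of Spry4 comes from a probe set only 0.24 log2 units above the lowest deposited value. Spred2 depends on how its probe sets are combined, with a log2 difference of 0.43 by the mean of its scored probe sets and 1.43 by the one with the largest difference.

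The rest of the pathway was described with 7 gene lists of 107 genes in all, of which 88 had a scored probe set. Each gene was read by the scored probe set with the highest mean level. Of the 88, 7 were then at least 1.5-fold higher with J147, 1 was lower and 80 were neither, beside the 0.556% higher and 0.810% lower of all genes. The genes past that limit lay in 2 lists, the ERK-responsive transcripts and the other feedback inhibitors. In the lists of receptors and of binding partners no gene passed it by that probe set, but 1 other probe set of Egfr (-0.72 on the log2 scale) and 1 of Kbtbd7 (-0.59) did. In the lists of adaptors, of RAS proteins and kinases and of RAS GTPase-activating proteins no scored probe set passed it.

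Upstream of RAS, the 12 scored receptor tyrosine kinases had a median log2 difference of -0.02. By the probe set with the highest mean level the PDGF receptors were the lowest, Pdgfrb with 15271 for vehicle and 10969 for J147 (a log2 difference of -0.48) and Pdgfra with 11423 and 9023 (-0.34). For Pdgfrb the other scored probe set had identical deposited values, and for Pdgfra the other 2 had -0.08 and -0.03. Egfr, the receptor of epidermal growth factor, had 0.07 by that probe set and -0.17 and -0.72 by its other 2 scored probe sets. The 11 scored adaptors and exchange factors had a median of 0.02, and their largest differences were -0.25 for Sos2, an exchange factor that loads RAS with GTP, and 0.20 for the docking protein Gab2. Grb2, the adaptor that Sprouty proteins bind, had 0.02, and 0.24 by its other scored probe set. The 11 scored RAS proteins and kinases had a median of -0.08, with the RAS-related GTPases Rras at -0.25 and Rras2 at 0.20. For Rras2 the other scored probe set had 0.03. The other scored probe sets of Braf ran from -0.57 to 0.10 and those of Araf from -0.39 to 0.09.

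The 7 scored RAS GTPase-activating proteins had a median of -0.00. Nf1, which encodes neurofibromin, had the same deposited value of 4.77 on both arrays, and the largest differences were 0.16 for Rasa2 and -0.15 for Rasal2. Of the genes listed as binding partners of Sprouty and SPRED proteins, 13 of 13 were scored, with a median of -0.02. Direct binding was not tested here. Kbtbd7, part of a ubiquitin ligase that has neurofibromin among its substrates, was lowest, at 2599 for vehicle and 1767 for J147. Its log2 difference was -0.56, and its other scored probe set had -0.59. Nbr1, an autophagy receptor that binds SPRED2, had -0.17. Cbl, the ligase that SPRY2 binds, had -0.06 and Cav1, the membrane scaffold caveolin-1, had 0.00.

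The 14 scored feedback inhibitors of other kinds had a median of 0.04 and lay on both sides of 0. Dusp4, a nuclear phosphatase of ERK, was 2.03-fold higher, from 4231 for vehicle to 8573 for J147. Rgs2, an inhibitor of G protein signalling, was 1.55-fold lower, from 43145 to 27845, and its other 2 scored probe sets had log2 differences of -0.71 and -0.46. Dusp6, a cytoplasmic ERK phosphatase that is often read as a reporter of ERK activity, had -0.11. Dusp5 (0.56), Dusp16 (0.36) and Errfi1 (0.32) were higher, short of 1.5-fold. Il17rd (-0.53), Dusp1 (-0.43) and Dusp8 (-0.42) were lower, also short of it. Il17rd was faint, at 141 for vehicle and 97.3 for J147, the latter close to the lowest value, where a fall is cut off. For Dusp8 the other 2 scored probe sets had -0.06 and -0.00. By their other scored probe sets, Dusp16 had -0.00 and Errfi1 0.49. Highest were the 20 scored ERK-responsive transcripts, with a median of 0.25 beside -0.00 for all scored genes. At least 1.5-fold higher were 6 of them, Egr3, Egr1, Plaur, Hbegf, Maff and Fosl1, and none was at least 1.5-fold lower, beside 0.556% and 0.810% of all genes. Their log2 differences were 2.997, 1.31, 0.99, 0.99, 0.87 and 0.76, in that order. The other 14 ran from -0.16 for Fos, faint at 125 for vehicle and 111 for J147, to 0.57 for Egr2. Egr2 was also faint, at 157 and 233, and had 0.04 by its other scored probe set. Spry2, at 0.59, was below the 6 and above the 14, among them the ETS factor genes Etv4 (0.08) and Etv5 (0.14). The lists were made with earlier results of these arrays known, and Egr3 and Egr1 had already been singled out, so these counts describe the arrays and support nothing further.

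**Figure D3:**
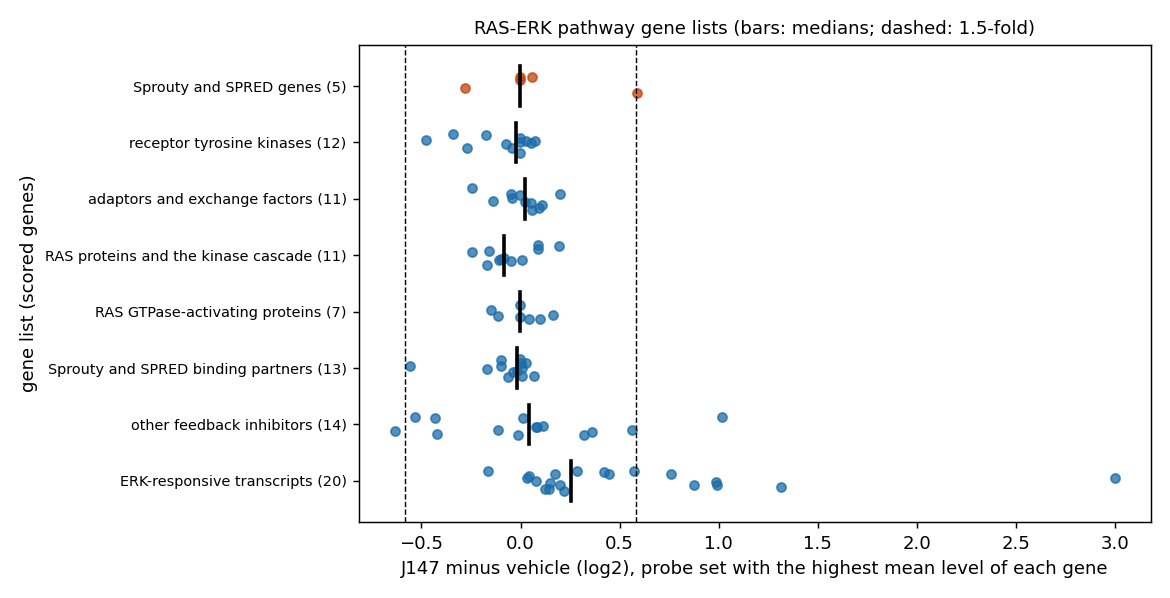
Each point is a scored gene, placed by its log2 difference for J147 minus vehicle (horizontal axis), for the Sprouty and SPRED genes (orange) and 7 lists of pathway genes (blue), with the number of scored genes in parentheses. Black bars are medians and dashed lines mark 1.5-fold. The ERK-responsive transcripts have the highest median, 0.25, and 1 of the 5 Sprouty and SPRED genes lies at the dashed line, at 0.59.

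Of 8 neuronal marker genes, 2 (Tubb3 and Gap43) exceeded the lowest deposited value on at least 1 array, and Map2, Snap25, Syt1 and Rbfox3 did not, whereas 6 of 7 fibroblast markers were above it. Markers above the lowest value numbered 2 of 7 for astrocytes (Gja1 and Slc1a3) and 2 of 7 for microglia (Tmem119 and Csf1r). They numbered 0 of 4 annotated for oligodendrocytes and 0 of 5 for endothelial cells. The summed scaled intensity of the neuronal markers was 7612 for vehicle and 8528 for J147, and that of the fibroblast markers 1142220 and 1129610. For astrocytes the sums were 70607 and 72815, for microglia 5788 and 4319, for oligodendrocytes 382 and 380.4 and for endothelial cells 477 and 476. The sum was higher with J147 for neurons and astrocytes and lower for fibroblasts and microglia, while the markers of oligodendrocytes and endothelial cells lay at the lowest value. For neurons, astrocytes and microglia the sum follows only the 2 genes above the lowest value, so no shift between cell types is read from it. The control probe sets for 18S rRNA had a median log2 difference of -0.63, the labelling spikes -0.16 and the hybridization spikes 0.13. Their part in the differences of Spred2 and Spry2 was not tested.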

How the data were processed

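RNA from HT22 cells, 1 culture with J147 and 1 with DMSO vehicle, was hybridized to 1 array each. The J147 concentration is 10 mM in the labels and 10 μM in the methods of the study. The authors ran gcRMA in R, which corrects background by probe GC content, and deposited log2 intensities for 45101 probe sets, 64 of them controls. The labels also name Affymetrix Expression Console 1.0, used for quality assessment. A gcRMA version was not given in the sources used here. gcRMA leaves many probe sets at a shared lowest value, where changes cannot be measured.

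Both arrays were scaled so that the median intensity of the 45037 other probe sets was 100. Symbols were updated through Entrez numbers to RefSeq (GRCm38.p6). A single gene is annotated to 34945 probe sets, several to 932 and none to 9160, and 8 of the 107 list genes are not listed and are not reported here. Neighbours are the 500 scored probe sets nearest in mean log2 level. Named were all members, and from each list the scored genes at least 1.5-fold different, or else the 2 with the largest differences. Probe sets nearest to a member in both values were not named, since that sets the levels of different probes side by side. Further genes (Egfr, Grb2, Araf, Braf, Nf1, Cbl, Cav1, Dusp1, Dusp5, Dusp6, Dusp8, Dusp16, Errfi1, Il17rd, Egr2, Fos, Etv4 and Etv5) were named after their values were seen. Members, lists and rules were chosen with earlier results of these data known. Alternatives were the deposited scale, quantile normalization, a lowess curve (span 0.3), a pseudocount of 50, other filters and thresholds, and other ways to combine probe sets. Python 3.11.15, numpy 2.4.6, pandas 2.3.3, statsmodels 0.14.6 and matplotlib 3.10.9 were used. The calculation was tested on simulated data over 22545 probe sets of this comparison. Of 50 probe sets given each fold, 35 came out at least 1.5-fold higher for a fold of 1.5, and 50 each for folds of 2.5 and 4. The simulated noise was the differences of these same arrays, with those of 2-fold or more set to 0, shuffled over all levels. Recovery for faint probe sets in particular was therefore not tested. Precision is limited by the number of arrays.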

Additional observations from a re-analysis of the deposited data

How the results depend on the processing

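Alternatives gave 220 values, of which 213 differed little from the main one, 7 moved and 0 changed sign from beyond 1.5-fold. Differing little meant within 1.5 times for counts and within 1 SD of the 500 neighbours for members. For lists it meant within the SD of all scored probe sets divided by the square root of the number of genes. Only the 2 member probe sets and 1 member gene past 1.5-fold could change sign in that sense, so the 0 says little. The count of 2 member probe sets at least 1.5-fold different became 1 with a pseudocount of 50 (the highest-numbered Spred2 probe set, with Spry2 1436584_at at 0.58), 1 at a threshold of 2-fold (the same Spred2 probe set) and 1 when both arrays had to lie at least 1 log2 unit above the lowest value (1436584_at). With the pseudocount, the log2 difference of that probe set was 1.17. By the mean of scored probe sets, the median of the ERK-responsive transcripts was 0.30. Spry2 1436584_at was at 0.59 on the deposited scale, 0.61 with quantile normalization and 0.62 after the lowess curve. A larger threshold or pseudocount lowers such counts by construction, and a pseudocount also shrinks log2 differences. The filter of 1 log2 unit left out the highest-numbered Spred2 probe set, whose vehicle value lay 0.61 log2 units above the lowest. The Spred2 gene value and the median of the ERK-responsive transcripts moved where other probe sets of the same genes were used. No array could be left out, and no paired analysis was possible because each group has 1 array. Signal near the lowest value leaves Spred3 and Spry1 without a measurement, and Spry4 with a scored value only 0.24 log2 units above the lowest.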
